A study of Mus musculus with 13 samples.

Results

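The genes of chromatin complexes and of DNA methylation were measured in EPLMs, early precursors that keep both lymphoid and myeloid potential, sorted from mouse bone marrow. A list of 46 genes was taken by name from 7 classes, namely Polycomb subunits, SWI/SNF subunits, NuRD subunits and a corepressor, DNA methyltransferases and TET enzymes, and histone demethylases, methyltransferases and acetyltransferases. The rule used no measured change, but the genes were listed with earlier results of these data known. Each gene was read by its brightest probe set with a single gene symbol over the 6 EPLM arrays, which gave 45 of the 46 genes out of 18193 genes measured. Ncor1, the nuclear receptor corepressor, had no such probe set and was left out.

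EPLMs are cells that carry B220, CD117 and CD93, lack NK1.1 among other markers, and are not yet committed to the B cell lineage. They came from 7-week-old mice on a B6CF1 x C57BL/6 background, 3 wild type (WT) littermates and 3 BCS mice, with 1 mouse per array. BCS mice carry a transgene of human OBF1 cDNA, the p34 nuclear isoform with an HA tag, driven by an immunoglobulin heavy chain variable promoter and the mu enhancer, elements which can also act in T cells. OBF1, encoded by Pou2af1, is a coactivator that joins octamer-bound Oct1 and Oct2. Which founder line the sorted mice came from is not given in the sources used here. Large preB2 arrays of the same series were not used, since their values do not follow the row names (r = 0.0943 with EPLM levels over 45037 probe sets, against 0.978 over 64 control features; probe sets are not independent replicates).

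Polycomb repressive complex PRC2 places the silencing mark H3K27me3 through Ezh2 or Ezh1, and PRC1 ubiquitylates histone H2A through Rnf2. SWI/SNF complexes slide and evict nucleosomes with the ATPase Smarca4 or Smarca2, and NuRD joins a Chd remodelling ATPase to histone deacetylases. Dnmt3a and Dnmt3b set new methyl groups on cytosine, Dnmt1 copies them after replication, and TET enzymes oxidize them. In blood formation these enzymes are known for their roles in stem cell self-renewal and lineage choice, and TET2 and DNMT3A are often mutated in human myeloid disease.

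Promoter sequences are shown for the 3 genes that passed the test and for Mta2, which did not pass and is the 1 gene whose window holds an octamer, since OBF1 acts through the octamer ATGCAAAT and the DNA methylation enzymes act on CpG. They are the 250 bases before the annotated start in RefSeq on build GRCm38.p6, 5′ to 3′ on the strand of the gene, whereas the array values themselves carry no coordinates. In the first 3 sequences capitals mark CpG, and in the last they mark the octamer. Smarca2 lies at chr19:26604910-26605159 on the plus strand, Dnmt3b at chr2:153649199-153649448 on the plus strand, Tet2 at chr3:133544391-133544640 on the minus strand and Mta2 at chr19:8941670-8941919 on the plus strand.
Smarca2: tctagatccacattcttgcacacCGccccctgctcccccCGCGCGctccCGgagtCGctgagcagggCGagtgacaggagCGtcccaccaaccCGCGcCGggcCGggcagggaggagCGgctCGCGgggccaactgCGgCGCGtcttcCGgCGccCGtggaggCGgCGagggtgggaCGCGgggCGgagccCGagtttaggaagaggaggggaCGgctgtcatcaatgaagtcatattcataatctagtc
Dnmt3b: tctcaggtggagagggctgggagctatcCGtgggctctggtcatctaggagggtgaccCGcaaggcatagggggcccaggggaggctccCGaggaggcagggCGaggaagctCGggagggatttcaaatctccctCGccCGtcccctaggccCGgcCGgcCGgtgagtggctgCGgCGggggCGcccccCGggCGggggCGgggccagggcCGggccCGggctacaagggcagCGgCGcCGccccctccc
Tet2: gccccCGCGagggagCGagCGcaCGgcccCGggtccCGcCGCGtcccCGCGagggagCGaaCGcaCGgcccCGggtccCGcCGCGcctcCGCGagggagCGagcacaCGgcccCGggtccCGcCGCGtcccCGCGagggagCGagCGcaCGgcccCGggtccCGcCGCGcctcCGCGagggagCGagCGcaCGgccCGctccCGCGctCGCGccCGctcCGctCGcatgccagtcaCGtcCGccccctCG
Mta2: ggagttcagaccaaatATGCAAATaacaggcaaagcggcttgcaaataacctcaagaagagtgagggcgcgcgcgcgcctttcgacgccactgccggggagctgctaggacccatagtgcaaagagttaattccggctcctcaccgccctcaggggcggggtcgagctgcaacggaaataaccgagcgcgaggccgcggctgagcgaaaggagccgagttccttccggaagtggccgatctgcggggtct
The Tet2 window held 51 CpG and 83.6% G and C, the Smarca2 window 28 CpG and 68.4%, and the Dnmt3b window 21 CpG and 75.2%. In the 46 RefSeq promoters matched to 38 of the listed genes the median was 22.5 CpG, against 6 in all 32851 promoters of the same length. Searched on both strands, the octamer was found in 1 of those 46 promoters (2.17%), that of Mta2, where it began 234 bases before the start, and in 1.6% of all promoters. A match of letters is no evidence of binding, and its absence from the other windows says nothing of OBF1 at those genes.

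The 6 arrays shared a median intensity of 20, and r on the log2 scale was 0.988 to 0.990 within a genotype and 0.966 to 0.975 between genotypes over 20383 probe sets above that median. Pou2af1 itself was higher in BCS EPLMs by 0.99 ± 0.23 (SE, n = 3 per genotype) on the log2 scale (adjusted p = 0.0436). Whether its mouse probe set reads the human transgene was not tested. By qPCR the study reported a robust rise of endogenous OBF1 in BCS EPLMs. It also reported no detectable endogenous OBF1 RNA in WT EPLMs, where this probe set read 3400 to 7250. Of the genes of the sorting gate, Ptprc, which encodes B220 among other forms of CD45, was lower (-0.40, adjusted p = 0.0101). Kit and Cd93 did not pass. The array reads RNA of the gene, so surface B220 was not measured. Markers of other cells moved with the genotype. Of 12 plasmacytoid dendritic cell markers 8 fell (summed intensity 93779 to 105967 in WT and 47780 to 63687 in BCS), led by Klk1, Pacsin1 and Ccr9, and of 12 B cell progenitor markers 7 rose (86190 to 111077 and 137186 to 154976), led by Vpreb3, Igll1 and Cd79b. NK markers fell for 2 of 11 (Klrd1 and Klrk1, sums of 8567 to 16175 and 1552 to 4702), and the sums overlapped without Klrd1 (1666 to 8064 and 466 to 3396). Erythroid and megakaryocyte markers fell for 1 of 9, Tfrc (23126 to 23869 and 13170 to 15345, without Tfrc 374 to 3987 and 302 to 356). Of 13 myeloid markers Csf1r fell, with overlapping sums (23928 to 73825 and 8990 to 49615). Of 9 T cell markers Thy1 rose and Cd8a fell, and 7 had lower means in BCS. Their sum was higher in BCS EPLMs (638 to 1397 and 1641 to 2089) and lower without Thy1 (237 to 526 and 173 to 211). Of 21 genes of dividing cells Cdk1 and Cdc20 rose, with overlapping sums (239062 to 269622 and 258069 to 285942). Below the array median on all 6 arrays lay 1 of 13 myeloid (Cebpa), 1 of 9 erythroid and megakaryocyte (Hba-a1) and 1 of 9 T cell markers (Gata3). Above it on all 6 arrays lay 10 of 13 myeloid, 6 of 9 erythroid and megakaryocyte, 5 of 11 NK and 3 of 9 T cell markers. Mpo (431 to 4651), Lyz2 (1137 to 7116) and S100a8 (4295 to 34295) were well above it, whereas Elane (12.7 to 30.6) and Itgam (25.7 to 30.3) lay near it. Klrk1, counted above among the NK falls, was at 15.0 to 17.1 in BCS, below the median. The part of these markers in the changes of the chromatin genes was not tested, and in bulk samples fewer cells of a type and less RNA per cell cannot be told apart.

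Most of the chromatin genes lay well above the array median in EPLMs. Of the 45 genes 3 passed the test between genotypes, a share near that of all genes. A gene that did not pass may still have changed. The de novo DNA methyltransferase Dnmt3b rose in BCS EPLMs, and the TET dioxygenase Tet2 and the SWI/SNF ATPase Smarca2 fell. The other 42 of the 45 genes did not pass an adjusted p of 0.05 in limma over all 45037 probe sets. A share of 2.22% rose, against 3.15% of all 18193 genes, and 4.44% fell, against 4.7% of all genes. Among the 43 of the 45 genes that lay above the array median on all 6 arrays the shares were 2.33% and 4.65%, against 5.01% and 7.45% of all 9892 such genes. The median change of the 45 genes was 0.04 on the log2 scale, against 0.01 over all genes, with 25 means higher and 20 lower in BCS cells. The genotypes did not overlap for 19 of the 45 genes (42.2%, 10 higher and 9 lower), against 28.7% of all genes and 40.0% of those 9892 genes. For 40 genes (88.9%) the 95% confidence interval of the change lay within 1 log2 unit of 0, and for 21 genes within 0.5. With unmoderated variances for each probe set, the test that the study's methods name, none of the 45 genes passed after adjustment (6 higher and 8 lower at an unadjusted p under 0.05).

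**Figure D1:**
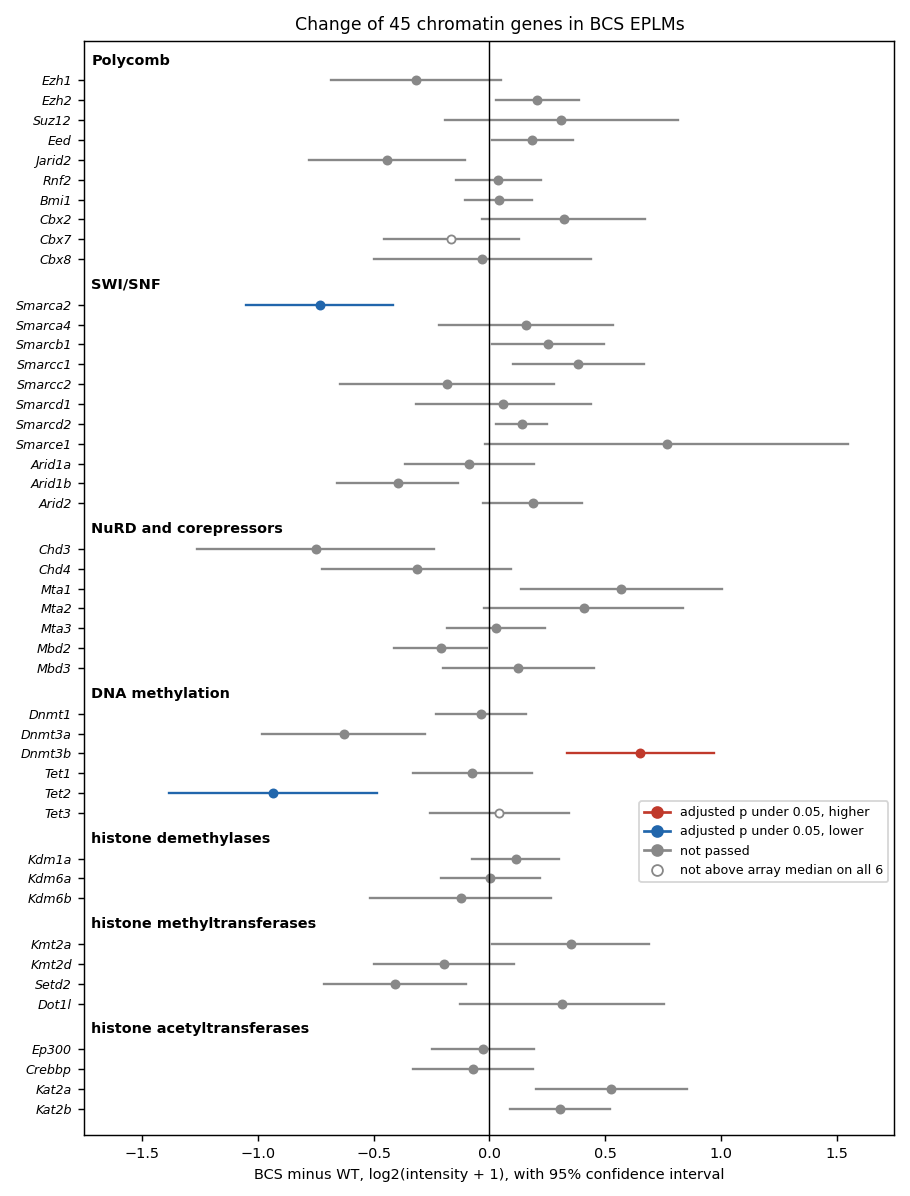
Change of each of the 45 chromatin genes in EPLMs, as BCS minus WT of log2(intensity + 1) on the horizontal axis, with 95% confidence intervals (3 mice per genotype). Dnmt3b lies to the right at 0.65, Smarca2 at -0.73 and Tet2 at -0.94 lie to the left, and open circles mark Cbx7 and Tet3, which were not above the array median on all 6 arrays.

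Of the 6 DNA methylation genes measured, 1 rose (16.7%, against 3.15% of all genes and 5.01% of those above the median on all 6 arrays). Another 1 fell (16.7%, against 4.7% and 7.45%). With 6 genes these shares rest on 1 gene each and carry little weight. Dnmt3b, which sets new methylation marks, had intensities of 1828, 1622 and 2184 in the 3 WT mice and 2640, 3371 and 2829 in the 3 BCS mice. All 3 BCS values lay above all 3 WT values, with a 1.57-fold higher level (log2 change 0.65 ± 0.14 SE, adjusted p = 0.0304). A second, dimmer probe set of Dnmt3b gave 309, 224 and 227 in WT and 365, 886 and 771 in BCS EPLMs. It rose as well, by 1.33 ± 0.32 (adjusted p = 0.0459), with its lowest BCS value in replicate 1. The Dnmt3b call did not hold without WT replicate 1 (adjusted p = 0.0841), WT replicate 2 (0.0967), BCS replicate 2 (0.112) or BCS replicate 3 (0.0803), with changes of 0.55 to 0.68.

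Tet2, which oxidizes methylcytosine, had intensities of 574, 595 and 585 in WT and 307, 235 and 393 in BCS EPLMs. The WT mice lay within a narrow range and every BCS mouse was below it. The level in BCS cells was 0.523 of that in WT (log2 change -0.94 ± 0.20 SE, adjusted p = 0.0281). A second Tet2 probe set gave 435, 443 and 384 in WT and 318, 219 and 206 in BCS EPLMs, again without overlap, and its change of -0.79 ± 0.20 missed the threshold (adjusted p = 0.0578). The Tet2 call held without BCS replicate 3 (0.0170) and was lost without any other single array, namely WT replicate 1 (0.0737), 2 (0.0870) or 3 (0.0939) and BCS replicate 1 (0.0662) or 2 (0.0784), at changes of -0.95 to -0.75.

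Dnmt3a, the other de novo methyltransferase, had intensities of 1057, 972 and 1236 in WT and 803, 694 and 613 in BCS EPLMs. Its genotypes did not overlap, and its change of -0.63 ± 0.16 missed the threshold (adjusted p = 0.0526), which it passed without BCS replicate 1 (-0.73, adjusted p = 0.0451). The 5 probe sets of Dnmt3a did not move alike. The second brightest gave 991, 922 and 961 in WT and 693, 523 and 586 in BCS cells and fell by 0.68 on the log2 scale (adjusted p = 0.0299), while the other 3 had changes of 0.17, -0.29 and 0.49, none of which passed.

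The maintenance methyltransferase Dnmt1 was bright and overlapped between genotypes, at 12593 ± 623 in WT and 12324 ± 1459 in BCS EPLMs (SD, n = 3), and the interval of its log2 change ran from -0.23 to 0.16. Tet1 was at 1507 ± 41.6 and 1435 ± 126, with an interval of -0.33 to 0.19. Tet3 lay below the array median on all 6 arrays (13.3 to 17.9), where intensities carry little signal over background.

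**Figure D2:**
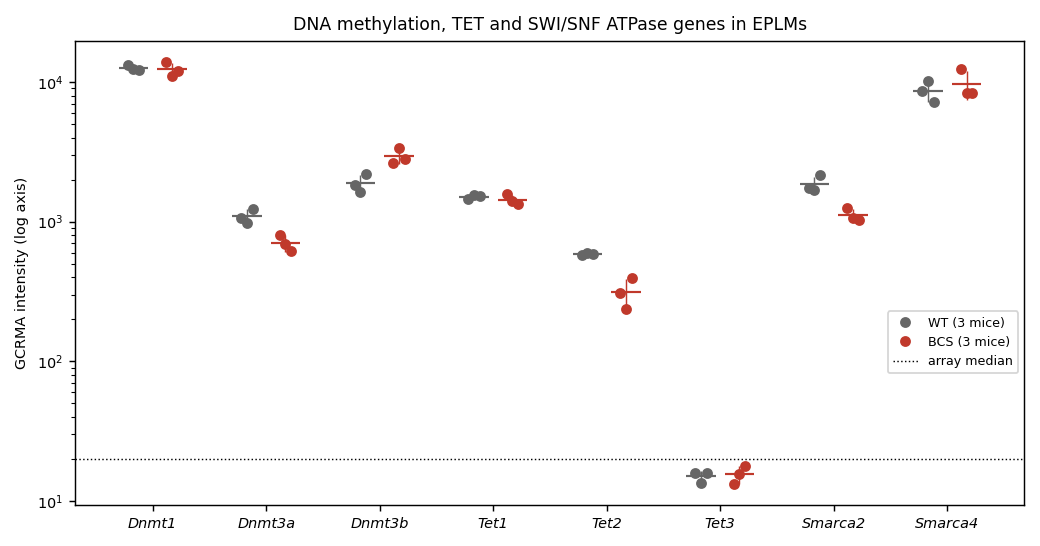
GCRMA intensity (log axis) of the DNA methyltransferases, the TET enzymes and both SWI/SNF ATPases on each EPLM array, WT in grey and BCS in red, with means and SD bars (3 mice each) and the array median of 20 as a dotted line. Dnmt3b is higher and Dnmt3a, Tet2 and Smarca2 are lower on all 3 BCS arrays, whereas Dnmt1, Tet1, Tet3 and Smarca4 overlap. Intensities of different genes cannot be set against each other, since probes differ in response.

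Among 11 SWI/SNF subunits 1 gene passed by its brightest probe set, the ATPase Smarca2, which fell. That is 9.09%, against 4.7% of all genes and 7.45% of those above the median on all 6 arrays. Smarca2 is thus a single call. Its intensities were 1736, 1687 and 2139 in WT and 1258, 1061 and 1020 in BCS EPLMs. Every BCS value lay below every WT value, at 0.601 of the WT level (log2 change -0.73 ± 0.14 SE, adjusted p = 0.0179). A second probe set of Smarca2 was dim, at 34.3 ± 11.4 and 25.3 ± 6.66 (SD, n = 3), and did not pass (-0.40, adjusted p = 0.520). Smarca2 no longer passed when WT replicate 3 was left out (adjusted p = 0.0753), nor without BCS replicate 2 (0.0702) or BCS replicate 3 (0.0677), with changes of -0.70 to -0.63. The alternative ATPase Smarca4 had overlapping intensities of 8579, 10099 and 7180 in WT and 12318, 8340 and 8391 in BCS cells, with an interval of -0.22 to 0.53 for its log2 change.

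The other SWI/SNF subunits did not pass by their brightest probe sets. Smarcc1, a core scaffold subunit, had 10495, 7907 and 7289 in WT and 10507, 11892 and 10748 in BCS EPLMs (0.38 ± 0.12, adjusted p = 0.133). WT replicate 1 lay just below the lowest BCS mouse, and without that array Smarcc1 passed (0.54, adjusted p = 0.0111). Arid1b, a DNA-binding subunit of the BAF form, had 1605, 1567 and 1775 in WT and 1264, 1169 and 1323 in BCS EPLMs (-0.40 ± 0.11, adjusted p = 0.0922), without overlap. Its paralog Arid1a overlapped (interval -0.37 to 0.19), as did Arid2 of the PBAF form (-0.03 to 0.40), Smarcc2 (-0.65 to 0.28) and Smarcd1 (-0.32 to 0.44). Smarce1 had the widest spread of all 45 genes, with 1291, 2603 and 991 in WT and 2928, 3201 and 1750 in BCS cells. Its change of 0.77 had an interval of -0.02 to 1.55 (adjusted p = 0.284), and a second Smarce1 probe set gave -0.06.

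For Smarcb1 and Smarcd2 the call depended on the probe set. Smarcb1, a core subunit, did not pass by its brightest probe set, at 3899 ± 424 in WT and 4642 ± 413 in BCS EPLMs (SD, n = 3; log2 change 0.25, adjusted p = 0.247). The name of that probe set carries the suffix x, which marks probes that may also bind other transcripts. Its second probe set, with no such mark, had 2117, 1902 and 1947 in WT and 2936, 3204 and 3373 in BCS EPLMs and rose by 0.67 ± 0.10 (adjusted p = 0.00542). This was the smallest adjusted p among the 114 probe sets of the listed genes. Smarcd2, an accessory subunit, had 16697 ± 110 in WT and 18401 ± 795 in BCS EPLMs by its brightest probe set (0.14, adjusted p = 0.157). A second Smarcd2 probe set with 1710, 1622 and 1657 in WT and 2609, 2415 and 2160 in BCS cells rose by 0.52 ± 0.11 (adjusted p = 0.0257).

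Over all 114 probe sets of the 45 genes, 7 passed, 4 higher and 3 lower, where 5.49% of all 45037 probe sets passed. They were both probe sets of Dnmt3b, the second ones of Smarcb1, Smarcd2 and Dnmt3a, and the brightest of Tet2 and Smarca2. Of the 114, 91 lay above the median on all 6 arrays and 17 below it on all 6.

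**Figure D3:**
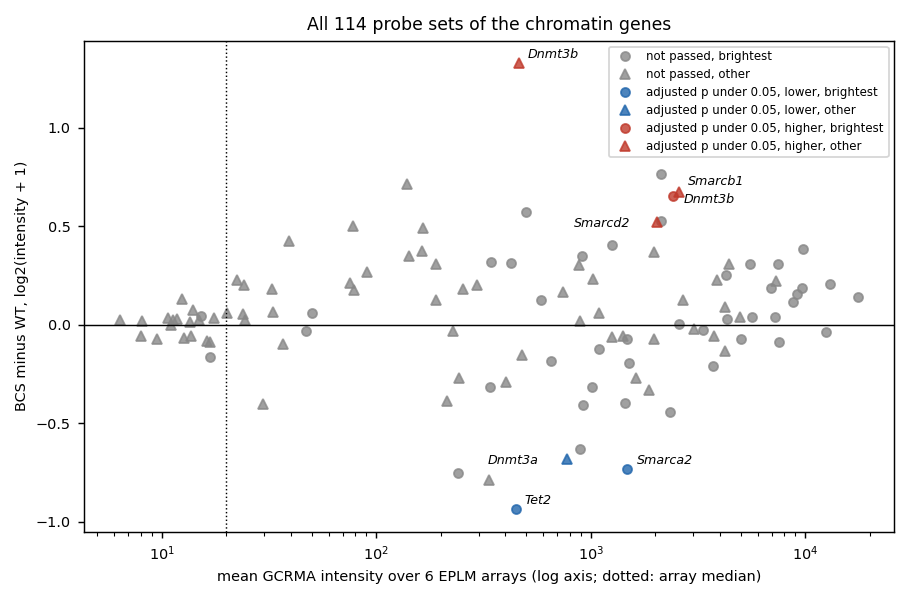
Change in BCS EPLMs (vertical axis, BCS minus WT of log2(intensity + 1)) against the mean intensity over the 6 arrays (log axis) for all 114 probe sets of the chromatin genes, circles for the brightest of a gene and triangles for the others. The 7 probe sets that passed are coloured and named, all lie to the right of the dotted array median, and the second Dnmt3b probe set is the highest at 1.33.

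None of the 10 Polycomb genes passed the test in either direction, where limma gave 2 higher and 1 lower at an unadjusted p under 0.05 (30%, against 23.0% of all genes and 34.0% of those above the median on all 6 arrays). The PRC2 methyltransferase Ezh2 was bright, at 12098 ± 1161 in WT and 13945 ± 867 in BCS EPLMs (SD, n = 3; log2 change 0.21 ± 0.08 SE, adjusted p = 0.199). Its paralog Ezh1 had 322, 398 and 411 in WT and 306, 290 and 306 in BCS cells, lower without overlap (-0.32 ± 0.16, adjusted p = 0.352). Eed, the subunit that reads the mark PRC2 has placed, gave 9077 ± 803 and 10298 ± 526 (0.18, adjusted p = 0.245). Jarid2, a cofactor that recruits PRC2, had 2423, 3305 and 2419 in WT and 2259, 1851 and 1853 in BCS EPLMs. Each BCS mouse was below each WT mouse (-0.44 ± 0.15), and the gene did not pass (adjusted p = 0.147).

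By its brightest probe set Suz12, the PRC2 scaffold, was the most variable Polycomb gene within a genotype. It had 9488, 5816 and 5067 in WT and 6695, 9887 and 8059 in BCS EPLMs (0.31, interval -0.19 to 0.81). It was highest in WT replicate 1 and BCS replicate 2, the same arrays on which the middle control feature of 18S ribosomal RNA was highest (8435, 4515 and 3794 in WT and 5681, 7048 and 3604 in BCS). The part of that feature was not tested. A second, nearly as bright probe set of Suz12 spread less, at 6726 ± 693 in WT and 7841 ± 547 in BCS EPLMs (SD, n = 3). Its log2 change was 0.22 (adjusted p = 0.228). The PRC1 ligase Rnf2 and its partner Bmi1 had log2 changes of 0.04 each, with intervals of -0.14 to 0.22 and -0.11 to 0.18. Of the chromobox proteins, PRC1 subunits that bind the PRC2 mark, Cbx2 had 297, 315 and 304 in WT and 424, 385 and 341 in BCS cells (0.32 ± 0.16, adjusted p = 0.326), without overlap. Cbx8 was dim, at 47.3 ± 4.97 and 46.9 ± 11.2, and Cbx7 exceeded the array median on 1 array only.

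No NuRD gene passed among the 7 measured, with 1 higher and 2 lower at an unadjusted p under 0.05 in limma (42.9%, against the same 23.0% and 34.0%). The remodelling ATPase Chd3 had 282, 354 and 269 in WT and 208, 131 and 206 in BCS EPLMs. That was the largest decrease of the 42 genes that did not pass (-0.75 ± 0.23, adjusted p = 0.104), and the genotypes did not overlap. Its paralog Chd4 overlapped, at 1114 ± 97.2 and 910 ± 228 (-0.31, adjusted p = 0.418). Mta1, a scaffold of the deacetylase module, had 337, 384 and 480 in WT and 499, 585 and 699 in BCS cells (0.57 ± 0.19, adjusted p = 0.145), without overlap. Mta2, whose promoter window holds the octamer printed above, had 1220, 1095 and 910 in WT and 1573, 1675 and 1077 in BCS EPLMs. It overlapped, since BCS replicate 3 lay below both brighter WT mice (0.41 ± 0.19, adjusted p = 0.304). Mta3 overlapped as well (0.03, interval -0.18 to 0.24). The methyl-CpG binding protein Mbd2 gave 3986 ± 164 and 3448 ± 245 (-0.21, adjusted p = 0.246), and its paralog Mbd3 564 ± 32.6 and 616 ± 59.0 (0.13, adjusted p = 0.726).

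None of the 11 histone-modifying enzymes passed, where 3.15% of all genes rose and 4.7% fell. At an unadjusted p under 0.05 in limma were 0 of 3 demethylases, 50% of 4 methyltransferases and 50% of 4 acetyltransferases. Of all genes 23.0% were, and 34.0% of those above the median on all 6 arrays. With so few genes these shares carry little weight. The H3K27 demethylases Kdm6a and Kdm6b and the H3K4 demethylase Kdm1a overlapped between genotypes, with log2 changes of 0.00, -0.12 and 0.11. Among methyltransferases, the H3K36 enzyme Setd2 had 1055, 1049 and 1032 in WT and 895, 779 and 701 in BCS EPLMs (-0.41 ± 0.14, adjusted p = 0.141). Every BCS mouse was lower, and the WT mice were close together. The H3K4 methyltransferase Kmt2a had 937, 787 and 688 in WT and 1099, 974 and 984 in BCS cells (0.35 ± 0.15, adjusted p = 0.256), without overlap, and its relative Kmt2d overlapped (-0.20, adjusted p = 0.512). The H3K79 methyltransferase Dot1l gave 381 ± 85.3 and 465 ± 22.3 (SD, n = 3; 0.31, adjusted p = 0.460), without overlap.

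Of the acetyltransferases, Kat2a (GCN5) came closest to the threshold, with 1916, 1511 and 1822 in WT and 2116, 2614 and 2851 in BCS EPLMs. All BCS values were higher (0.53 ± 0.14, adjusted p = 0.0760), and without BCS replicate 1 the gene passed (0.65, adjusted p = 0.0377). Its paralog Kat2b (PCAF) had 4842, 5428 and 4509 in WT and 6539, 6117 and 5596 in BCS cells, also without overlap (0.31 ± 0.09, adjusted p = 0.114). The coactivators Ep300 and Crebbp overlapped, with intervals of -0.25 to 0.19 and -0.33 to 0.19 for their log2 changes.

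Since many of these genes come as paralogs that can replace each other in a complex, the log2 difference between paralogs was taken on each array and compared between genotypes for 18 pairs. The largest shift was between the de novo methyltransferases, where Dnmt3a minus Dnmt3b moved by -1.28 ± 0.18 (SE, n = 3 per genotype). Smarca4 minus Smarca2 moved by 0.89 ± 0.26 and Tet2 minus Tet1 by -0.86 ± 0.24. In 3 more pairs the genotypes did not overlap either, with Kmt2a minus Kmt2d at 0.55 ± 0.23, Mta3 minus Mta1 at -0.54 ± 0.16 and Ezh2 minus Ezh1 at 0.53 ± 0.19. The genotypes of Cbx2 minus Cbx7 did not overlap either, but Cbx7 exceeded the array median on 1 array only, and no size is given for that pair. In total 7 of the 18 pairs did not overlap. Among single genes, 28.7% of all and 40.0% of those above the median on all 6 arrays did not overlap. No such share was taken over pairs of other genes, so the count is not read as a result about paralogs. A two-sided exact permutation test gave p = 0.1 for each of the 6 pairs whose members both lay above the array median, the smallest that 3 mice against 3 allow, and 0.257 after Benjamini-Hochberg adjustment over the 18 pairs, so none of the pairs could pass. The pair Ep300 minus Crebbp moved by 0.04 ± 0.09. The pairs with Dnmt3b, Smarca2 or Tet2 hold the genes that passed above and are no separate evidence for them.

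**Figure D4:**
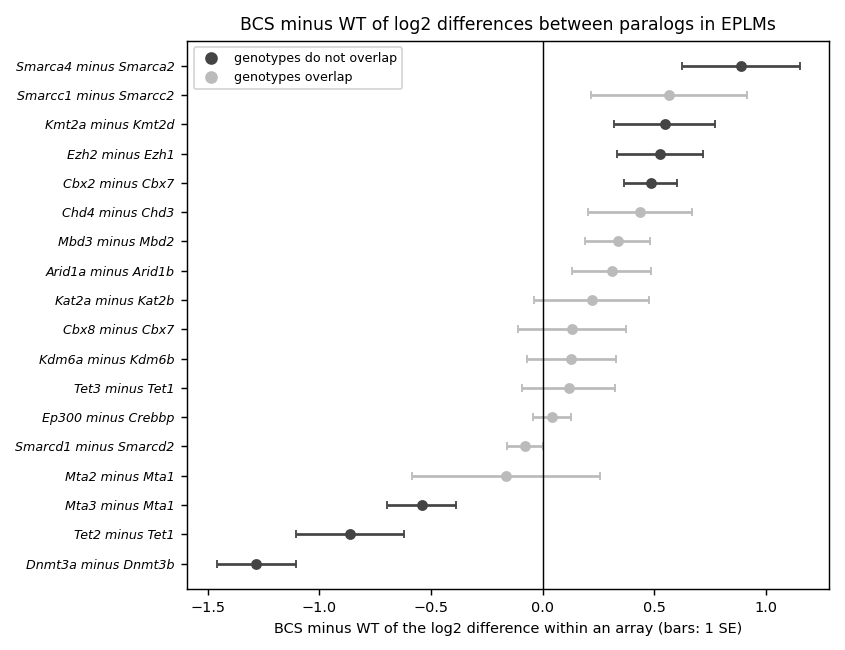
BCS minus WT of the log2 difference between paralogs within an array (horizontal axis) for 18 pairs, with bars of 1 SE (3 mice per genotype). The 7 dark pairs do not overlap between genotypes (6 without Cbx2 minus Cbx7, where Cbx7 is dim), from Dnmt3a minus Dnmt3b at -1.28 to Smarca4 minus Smarca2 at 0.89, and the grey pairs overlap.

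A wider list of chromatin genes around these complexes had 138 genes, of which 130 were measured. Of the 130, 118 lay above the array median on all 6 arrays. Of the 130 genes 4 rose (3.08%, against 3.15% of all genes and 5.01% of those above the median on all 6 arrays). In the other direction 2 fell (1.54%, against 4.7% and 7.45%). The median change of the 130 was 0.06 on the log2 scale, against 0.01 over all genes. The H3K4 demethylase Kdm5b had 693, 652 and 611 in WT and 291, 209 and 342 in BCS EPLMs. It fell below every WT value in each BCS mouse (-1.24 ± 0.20, adjusted p = 0.00780). The Polycomb protein Scmh1 had 304, 343 and 309 in WT and 777, 1066 and 496 in BCS cells and rose by 1.22 ± 0.26 (adjusted p = 0.0263). Mtf2, a PRC2 accessory protein, rose from 5070 ± 1071 to 7610 ± 499 (SD, n = 3; 0.61, adjusted p = 0.0448). The remodelling factor Chd2 fell from 1684 ± 117 to 1077 ± 189 (-0.66, adjusted p = 0.0369). The other rises were smaller, 0.30 for the SWI/SNF subunit Ss18 (adjusted p = 0.0414) and 0.28 for Ing1, a reader of methylated H3K4 (adjusted p = 0.0368). For these 6 genes, other probe sets and fits without single arrays were not examined. The wider Polycomb list held 2 rises among 22 genes (9.09%), Scmh1 and Mtf2. No gene passed among 16 further NuRD and corepressor genes, 8 further genes of DNA methylation and 25 further histone methyltransferases. There limma gave 2, 2 and 5 higher and 1, 0 and 1 lower at an unadjusted p under 0.05. These are 18.8%, 25% and 24%, against 23.0% of all genes and 34.0% of those above the median on all 6 arrays.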

How the data were processed

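RNA of sorted EPLMs was hybridized to Affymetrix mouse whole-genome GeneChips, 1 mouse per array. The methods state a 2-cycle labeling kit and the labels a 1-cycle protocol. The authors normalized with GCRMA (version not given in the sources used here) and deposited intensity values on a linear scale, 1 column per array. Large preB2 WT arrays are described as EPLM controls in 1 label, against their titles and source names, which were followed. The platform annotation gave a single symbol for 34945 of 45037 probe sets, more than 1 for 932 and no symbol for 9160, and a gene was read by its brightest single-symbol probe set.

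The 6 EPLM arrays alone entered a linear model on log2(intensity + 1), BCS minus WT and without covariates, in limma 3.58.1 under R 4.3.3, with variances moderated along an intensity trend (eBayes). The p-values were adjusted with the Benjamini-Hochberg procedure over 45037 probe sets, and a gene passed at an adjusted p under 0.05. Intervals are 95% confidence intervals of the log2 change, and folds come from the same log2 scale. The fit was tested on simulated data. The limma p-values, SEs and intervals combine the spread between the 3 mice per genotype with that of other probe sets of like intensity. They are therefore not a measure of the spread of 1 gene between these mice alone. The SEs of the paralog pairs are not moderated. The number of arrays limits the precision. No 2 arrays were identical. An item of the sorting gate is not reported here.

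The genes, the wider list, the markers and the tests were chosen with earlier results of these data known. By rule, every gene of the list that passed was to be named with its values on all arrays, the others by complex, of the wider list up to 4 passing genes per group, and of the markers up to 3. Probe sets other than the brightest, and the arrays discussed beside Suz12, were named after their values were seen. Alternatives were the methods' t-test, variances moderated without the trend or robustly, removal of dim probe sets, quantile normalization, median centring, an offset of 16, a gene's mean over probe sets or its most variable one, a stricter threshold, the replicate number as a block and leaving out each array.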

Additional observations from a re-analysis of the deposited data

How the results depend on the processing

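Of the 45 genes, 1 was higher and 2 were lower in BCS EPLMs, and these counts moved with most choices. With the methods' t-test 0 and 0 passed after adjustment, against 6 and 8 at an unadjusted p under 0.05, and 0 and 0 at the methods' own threshold of p and fold. At an adjusted p of 0.01 in limma 0 and 0 passed, against 10 and 8 at an unadjusted p under 0.05. In limma without the trend 0 rose (7 at an unadjusted p under 0.05) and 2 fell. With dim probe sets filtered out 2 rose and 4 fell, which added Kat2a, Dnmt3a and Arid1b. The mean of a gene's probe sets gave 2 and 2, and the most variable probe set 3 and 1. Smarca2 passed in neither of these limma fits (adjusted p = 0.0786 and 0.520), whereas Dnmt3b and Tet2 passed in both. With the replicate block 0 rose and 1 fell in limma (11 and 7 at an unadjusted p under 0.05), where Smarca2 passed (adjusted p = 0.0477) and Dnmt3b (0.0673) and Tet2 (0.0512) did not. Same-numbered arrays did not deviate together (r = -0.03, 0.05 and 0.09 over 20383 probe sets). These correlations cannot settle whether the replicate numbers pair the mice. Leaving out single arrays gave 0 to 2 rises and 0 to 2 falls. Robust variances (1 and 3), quantile normalization, median centring and an offset of 16 (each 1 and 2) moved little. The median change of the genes ran from 0.01 to 0.06 on the log2 scale over these alternatives, and none of them turned the sign of Dnmt3b, Tet2 or Smarca2. The cause of the lost calls was not tested. With 3 mice per genotype the change of Smarce1 could not be told from the spread, and Tet3, Cbx7, Cbx8 and Smarcd1 lay near the array median, where signal over background is low. The 3′ to 5′ signal ratio of the actin control was 4.12 to 5.91 in WT and 5.71 to 6.44 in BCS, and that of Gapdh 5.74 to 6.24 and 4.97 to 6.01, and the part of RNA quality in the changes was not tested.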

Other observations

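The spread within a genotype was near that of other well expressed genes. The pooled SD on the log2 scale had a median of 0.159 over the 45 chromatin genes, against 0.162 over the 9892 genes above the array median on all 6 arrays. By brightest probe sets, the widest were Smarce1 at 0.61, Suz12 at 0.39 and Chd3 at 0.31. At an unadjusted p under 0.05 in limma, 40.0% of the chromatin genes were counted, against 34.0% of those 9892 genes and 23.0% of all genes.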
